A study of Mus musculus with 157 samples.

Results

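Monosomes and light polysomes of LPS-activated mouse B cells were compared along sucrose gradients. The comparison used 28 of the 157 libraries in the table, 4 monosome libraries (fractions 4 to 7) and 3 light polysome libraries (fractions 8 to 10) from each of 4 gradients. They were chosen by the treatment and fraction in the column names, with the fraction classes that the labels give, and no measured value took part in the choice. The study asked how the ribosome association of mRNA changes after DNA damage in activated B lymphocytes, and the LPS group is its control without etoposide.

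All groups were splenic B cells of C57BL/6Babr mice cultured with lipopolysaccharide (LPS), a bacterial mitogen, at 10 µg/ml. The LPS group had 48 h of LPS alone. The LPS+ET group was then also exposed for 4 h to etoposide, which traps topoisomerase II on DNA and leaves breaks. The LPS+ET+KU group had 47 h of LPS and then KU55933, an inhibitor of the DNA damage kinase ATM, for 1 h ahead of etoposide. Every group was held in cycloheximide (100 µg/ml, 3 min), which stops ribosomes in elongation, so no sample shows ribosomes that were never arrested. The same RNA concentration of each fraction entered its library, and a level is therefore a share of that fraction's mRNA and not an amount per cell. Gradients are named by the LUL tag in the column names, which is one of LUL15, LUL16, LUL17 and LUL18. The same tags occur in every treatment.

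In a sucrose gradient, an mRNA sediments by the number of ribosomes it carries. A single ribosome places it among monosomes, a few among light polysomes and many among heavy polysomes. That number depends on how often initiation takes place, how fast elongation is and how long the coding sequence is, so a short coding sequence cannot hold a long string of ribosomes. Terminal oligopyrimidine (TOP) mRNAs, which encode ribosomal proteins and elongation factors, begin with a C and a run of pyrimidines, and mTOR signalling through the binding protein LARP1 controls whether they are in polysomes. RNAs without translation, such as nuclear long noncoding RNAs, sediment with the proteins they carry.

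The 28 libraries held 14724 to 2762807 counts each (median 758478.5). The 3 libraries under 100000 counts were all of fraction 4, in gradients LUL15, LUL17 and LUL18. Summed by class, a gradient held 1548206 to 2850390 monosome and 2546326 to 6426611 light polysome counts. All 10 B cell marker mRNAs listed were at 1 CPM (counts scaled to a fixed library total) or more, and summed to 28560 to 45550 CPM in monosomes and 34270 to 55880 CPM in light polysomes. Of 9 T cell markers in the table, 4 reached 1 CPM (summed 124 to 141 CPM in monosomes, 165 to 220 CPM in light polysomes). Of 11 myeloid markers, 8 did so and 1 was at 0 (34.04 to 78.7 CPM and 47.3 to 166.5 CPM). Of 4 erythroid markers 1 did so and 1 was at 0 (13.5 to 27.6 CPM and 69.2 to 97.9 CPM), and of 4 NK and plasmacytoid cell markers 1 did so (41.1 to 91.5 CPM and 79.1 to 139.8 CPM). Fewer cells of a type and less RNA per cell cannot be told apart in such samples, and the part of these cells in the results was not tested.

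A test across 8844 genes, on counts summed per class and gradient with the gradient as a block (edgeR, TMM scaling), called 3541 genes at an adjusted p under 0.01 (40% of those tested). Of these, 1852 (20.9%) were higher in light polysomes and 1689 (19.1%) in monosomes, and the change exceeded 1 on the log2 scale for 646 and 696 of them. The median over all genes was 0.01. A log2 fold change below is light polysomes over monosomes in that fit and is relative to the typical gene, while CPM values are unscaled means over the fractions of a class. The split depended on the scaling. Without scaling factors the median over all genes was 0.47, and 3904 genes were called higher in light polysomes against 673 in monosomes (85.3% of calls, against 52.3% with TMM). Limma with equal weight per fraction, which also used unscaled CPM, gave 2556 and 429 (85.6%, median over all genes 0.52). Both settings test the unscaled ratio against 0 and not against the typical gene. On CPM, 1711 of the 1852 genes called in light polysomes were higher there in all 4 gradients. Of the 1689 called in monosomes, 673 were lower in light polysomes in all 4 and 55 were higher in all 4, so a small negative fold change can go with equal or higher CPM in light polysomes.

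Ribosomal protein mRNAs stood far on the monosome side. Of 78 cytosolic ribosomal protein genes in the table, 68 passed the expression filter, 64 (94.1%) were called higher in monosomes and 1 in light polysomes, and the median log2 fold change was -1.79. The 16 tested of 19 other TOP mRNAs, whose products include elongation factors, a poly(A) binding protein, initiation factor subunits, TCTP and a histone chaperone, were all called higher in monosomes (median -1.74). Both lists kept their negative median in each gradient, at -1.72 to -2.02 and -1.49 to -1.90 relative to the median of all genes in that gradient. Ribosomal protein mRNAs took 16.1% ± 1.54 (SD, n = 4) of the counts in monosomes and 6.61% ± 0.755 in light polysomes. A large part of both shares came from Rps20 alone, whose CPM is given below, so they do not describe the list evenly.

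The RefSeq starts of some of these mRNAs are shown because their first bases define the class. Each run covers 10 bases before and 20 from the RefSeq start, 5′ to 3′ on the transcribed strand of GRCm38.p6, and capitals mark a C followed by at least 4 further C or T that begins within 5 bases of the start. The first 4 are of mRNAs high in monosomes with such a tract. The next 2 are of mRNAs high in monosomes without one that begins within 5 bases of the start. The last 2 are of short mRNAs high in light polysomes. The Rps12 and Timm10 runs each hold an unmarked C followed by at least 4 C or T, beginning beyond those 5 bases.
Rps15a: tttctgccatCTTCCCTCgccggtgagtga
Eif3f: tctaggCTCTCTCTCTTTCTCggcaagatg
Rps18: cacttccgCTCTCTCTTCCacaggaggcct
Rpl13a: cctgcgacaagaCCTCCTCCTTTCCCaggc
Tpt1: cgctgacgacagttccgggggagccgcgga
Rps12: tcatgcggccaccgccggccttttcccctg
Timm10: gatcaaagaagaggctagacttccttccgg
Snrpd3: tggtattcgtgagagtcgggccggtcgttc
They lie at chr7:118116128-118116157 (minus strand), chr7:108934405-108934434 (plus strand), chr17:33955646-33955675 (minus strand), chr7:45128726-45128755 (minus strand), chr14:75845246-75845275 (plus strand), chr10:23787190-23787219 (minus strand), chr2:84827011-84827040 (plus strand) and chr10:75518032-75518061 (plus strand). The tract was searched on the transcribed strand only. It stood in 18.3% of 32851 RefSeq starts in all and in 19.6% of the 8178 starts matched to tested genes. It stood in 44.4% of the 63 starts of 53 cytosolic ribosomal protein genes and in 3 of 9 starts of the other TOP mRNAs. It also stood in 3 of 7 starts of snoRNA host genes and nuclear lncRNAs and in 28.6% of 63 respiratory chain starts. The share was 15.8% of 38 starts for small abundant proteins, 15.4% of 39 for very long coding sequences and 11.1% of 9 for CCT. Among genes called in light polysomes the share was 17.4% (1739 starts) and among those called in monosomes 21.2% (1413 starts). Without the ribosomal protein and other TOP lists, the share among those called in monosomes was 19.99% (1346 starts), near that of all tested genes. A match is a description of the letters, and an annotated start can lie some bases from the start used in these cells. The Tpt1 run lies inside the coordinates given below for that gene and away from its first base. It may therefore not show the 5′ end of that mRNA.

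Rps15a, a small subunit protein (chromosome 7, 118104378 to 118116186 on GRCm38, counted at its 3′ untranslated exon), had 2667, 2761, 2959.9 and 2281 CPM in monosomes of gradients LUL15, LUL16, LUL17 and LUL18, the order used for all such values. In light polysomes it had 547, 609, 535 and 503 CPM, a log2 fold change of -2.63 (SE 0.11, adjusted p = 3.297e-21). The classes did not overlap, and heavy polysomes were lower again (251, 234, 222 and 211 CPM). Rps20, another small subunit protein (chromosome 4, 3831334 to 3835665) and one of the 5 protein coding mRNAs with the highest mean CPM, had 75289.5, 62072, 68983 and 49319 CPM in monosomes and 33095, 24020.5, 32804 and 23720.0 CPM in light polysomes. Its fold change was -1.50 (SE 0.11, adjusted p = 3.33e-14), and the classes did not overlap. Rps12 (chromosome 10, 23785211 to 23787195), which was counted 49 bases from an annotated transcript end and outside an exon, was at 40.99, 34.7, 61.4 and 57.3 CPM against 7.97, 8.64, 7.35 and 10.6 CPM (log2 fold change -2.34, SE 0.17, adjusted p = 4.67e-14). Among the ribosomal protein genes, Rps27l alone was called higher in light polysomes. This p53-inducible paralogue of Rps27 (chromosome 9, 66946086 to 66949516) had 201, 253, 214 and 116 CPM in monosomes and 582, 411, 648 and 516 CPM in light polysomes, a fold change of 0.70 (SE 0.11, adjusted p = 1.19e-06) with classes that did not overlap. Rpl7l1 (0.03), Rpl27 (-0.80) and the row named Rpl24 (-0.17) did not pass the test. The identifier of the row named Rpl24 belongs to Zbtb11 in GENCODE, so that value may not be of a ribosomal protein mRNA.

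Among the other TOP mRNAs, Eef1b2, a subunit of the elongation factor eEF1B (chromosome 1, 63176825 to 63180486), had 5481, 5145, 6883 and 5972 CPM in monosomes and 1530.1, 1256, 2074 and 1728 CPM in light polysomes (log2 fold change -2.27, SE 0.10, adjusted p = 2.75e-20). Tpt1, which encodes the growth-related protein TCTP (chromosome 14, 75845093 to 75848525), had 56.7, 60.1, 110.4 and 81.3 CPM against 7.61, 8.68, 22.5 and 13.99 CPM (log2 fold change -3.12, SE 0.14, adjusted p = 5.77e-20). Pabpc1, the cytoplasmic poly(A) binding protein (chromosome 15, 36595661 to 36608973), had 232, 177, 284 and 195 CPM against 67.8, 42.4, 88.7 and 69.2 CPM (log2 fold change -2.25, SE 0.10, adjusted p = 3.05e-20). In these 3 the lowest monosome gradient was above the highest light polysome gradient. Nap1l1, a histone chaperone (log2 fold change -0.76, SE 0.09, adjusted p = 1.095e-08), and Eef1d, another eEF1B subunit (log2 fold change -0.36, SE 0.10, adjusted p = 0.00212), were the members nearest to 0. Their CPM was lower in light polysomes in 3 of 4 gradients, and Eef1d did not pass the test without gradient LUL17 (-0.37, adjusted p = 0.0126) or without fraction 10 (-0.29, adjusted p = 0.0120).

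**Figure D1:**
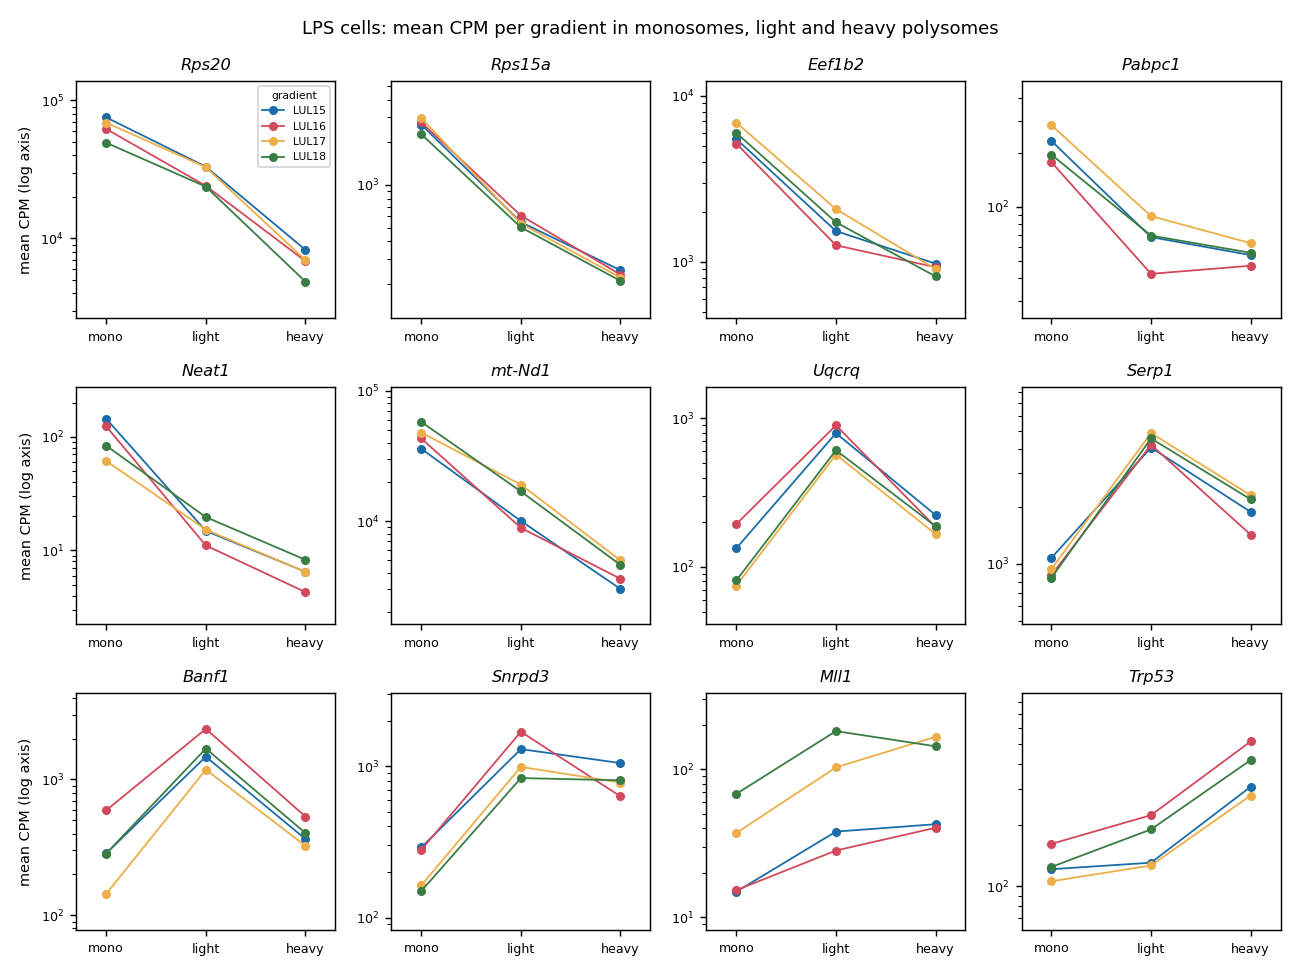
Mean CPM (log axis) of 12 mRNAs in monosomes, light polysomes and heavy polysomes, with 1 line and point per gradient (LUL15 to LUL18). Rps20, Rps15a, Eef1b2, Pabpc1, Neat1 and mt-Nd1 fell from monosomes to light polysomes in each gradient, Uqcrq, Serp1 and Banf1 had their maximum in light polysomes, and Trp53 rose to heavy polysomes.

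The course over single fractions placed these classes apart. Relative to its mean over fractions 4 to 16, the median ribosomal protein mRNA was highest in fraction 5 (1.44 ± 0.13 on the log2 scale, SD, n = 4 gradients), at -0.41 ± 0.02 in fraction 9 and lowest in fraction 13 (-1.93 ± 0.15). The median of all tested genes was at -1.03 ± 0.24 in fraction 5, -0.12 ± 0.04 in fraction 9 and 0.07 ± 0.04 in fraction 16. The list of small abundant proteins differed from ribosomal proteins in the lighter fractions and was also low in the heavy ones, at -1.73 ± 0.25 in fraction 5, highest in fraction 9 (1.23 ± 0.14) and at -1.38 ± 0.05 in fraction 13. Very long coding sequences were at -2.43 ± 0.24 in fraction 5, -0.92 ± 0.38 in fraction 9 and highest in fraction 16 (2.14 ± 0.43).

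**Figure D2:**
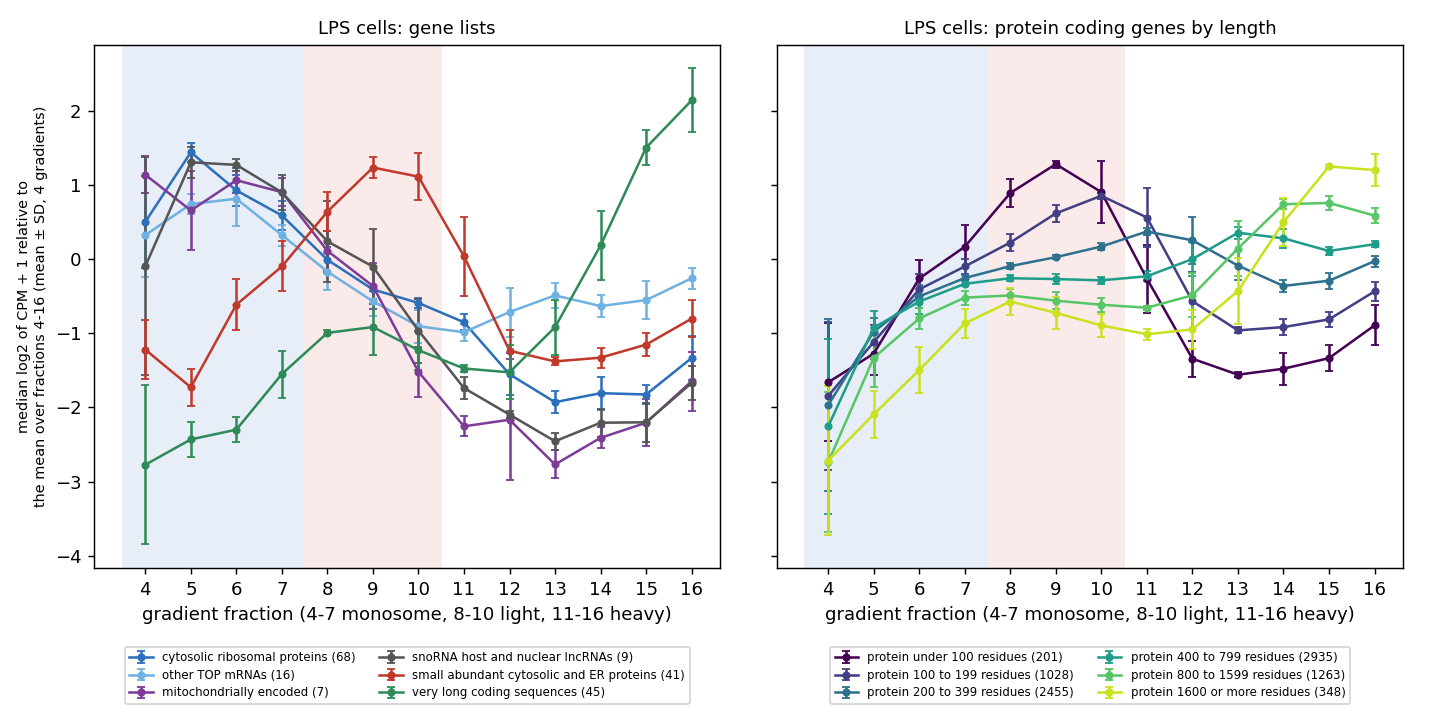
Median log2 (CPM + 1) of gene lists (left) and of protein coding genes by protein length (right) in fractions 4 to 16, relative to each gene's mean over those fractions. Points are means and bars SDs over 4 gradients, with monosome fractions shaded blue and light polysome fractions red. Ribosomal protein mRNAs peaked in fraction 5 and small abundant proteins in fraction 9, and proteins of 1600 or more residues were highest in fractions 15 and 16.

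mRNAs of the mitochondrial genome, which mitochondrial ribosomes translate, were also on the monosome side. All 7 tested were called higher in monosomes, with a median log2 fold change of -1.46. mt-Nd1, a complex I subunit (chromosome MT, 2751 to 3705 of the mitochondrial chromosome), had 35861, 43037, 47769 and 57669 CPM in monosomes and 10009.9, 8863, 19022 and 16871 CPM in light polysomes (log2 fold change -2.34, SE 0.12, adjusted p = 4.33e-19). mt-Nd2, another complex I subunit, had 413, 319, 688 and 811 CPM against 82.1, 56.5, 123.5 and 117 CPM (log2 fold change -2.50, SE 0.10, adjusted p = 2.66e-21). Monosome and light polysome gradients of both mRNAs did not overlap. mt-Cytb, the mitochondrial subunit of complex III, had 18064, 19542, 17473 and 18611 CPM against 14887, 10679, 22906 and 24956 CPM, with light polysomes lower in LUL15 and LUL16 and higher in LUL17 and LUL18. Its fold change of -0.56 (SE 0.13, adjusted p = 2.96e-04) became -0.10 (adjusted p = 0.433) without fraction 10. mt-Nd4 likewise was lower in 2 of 4 gradients on CPM (log2 fold change -0.93, SE 0.13, adjusted p = 1.71e-07). Genes of the mitochondrial chromosome took 12.1% ± 1.56 of monosome and 6.74% ± 2.44 of light polysome counts (SD, n = 4).

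Noncoding RNAs and pseudogene models were called in monosomes more often than in light polysomes. The shares over all genes tested were 19.1% in monosomes and 20.9% in light polysomes. Of 105 lincRNAs tested 46 (43.8%) were called in monosomes and 12 (11.4%) in light polysomes. Of 255 pseudogenes 121 (47.5%) and 40 (15.7%) were so called, and of 56 processed transcripts 25 (44.6%) and 6 (10.7%). Of 52 antisense genes, 16 (30.8%) and 11 (21.2%) were, with a median of 0.13. Light polysome CPM exceeded monosomes and heavy polysomes in all 4 gradients for 27.6% of lincRNAs and 38.5% of antisense genes. The share was 13.7% of pseudogenes, 17.9% of processed transcripts and 20.1% of all genes. All 9 tested snoRNA host genes and nuclear lncRNAs, of 14 in the table, were called in monosomes (median -2.07). Neat1, the scaffold RNA of nuclear paraspeckles (chromosome 19, 5824708 to 5845478), had 144, 124, 61.4 and 83.5 CPM in monosomes and 14.9, 11.1, 15.2 and 19.6 CPM in light polysomes (log2 fold change -3.22, SE 0.14, adjusted p = 2.29e-20). Snhg6, a snoRNA host gene, had 133, 183, 188 and 174 CPM against 26.4, 20.7, 47.4 and 43.5 CPM (log2 fold change -2.86, SE 0.12, adjusted p = 8.68e-21). Both had classes that did not overlap. A430104N18Rik, named Mir142hg in GENCODE and the host of the haematopoietic miR-142 (chromosome 11, 87755577 to 87757270), had 1642, 1702, 606 and 760.4 CPM against 114, 76.6, 40.6 and 72.4 CPM (log2 fold change -3.87, SE 0.12, adjusted p = 2.49e-24). The lincRNA that the table calls mmu-let-7d (ENSMUSG00000097375, 6720427I07Rik in GENCODE, chromosome 13, 48535523 to 48537822) is not the mature let-7d and had 101, 72.1, 68.03 and 135 CPM against 13.1, 4.81, 10.3 and 12.1 CPM (log2 fold change -3.41, SE 0.15, adjusted p = 1.298e-20).

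Snhg5 (log2 fold change -0.42, SE 0.10, adjusted p = 5.17e-04) and Pvt1 (log2 fold change -0.42, SE 0.13, adjusted p = 0.00551) were nearest to 0 in that list, and their CPM was higher in light polysomes in 3 of 4 gradients. Snhg5 did not pass without fraction 10 (-0.19, adjusted p = 0.0634). Pvt1, a lncRNA beside Myc, did not pass without LUL16 (-0.25, adjusted p = 0.0972), LUL17 (-0.43, adjusted p = 0.0238), fraction 7 (-0.33, adjusted p = 0.0563) or fraction 10 (-0.07, adjusted p = 0.666). Among pseudogene models, Rps19-ps3 (log2 fold change -4.13, SE 0.14, adjusted p = 2.36e-23), Gm9396 (log2 fold change -2.66, SE 0.14, adjusted p = 1.24e-18) and Rps18-ps3 (log2 fold change -1.89, SE 0.11, adjusted p = 1.67e-17) were on the monosome side, and Gm4617 (log2 fold change 1.66, SE 0.10, adjusted p = 1.27e-16) and Gm9800 (log2 fold change 1.596, SE 0.14, adjusted p = 1.48e-12) on the light polysome side. The table gives Gm9396 and Rps18-ps3 as protein coding, while GENCODE has all 5 as processed pseudogenes. Such models can share reads with their parent genes, so their values are uncertain. The processed transcript 2010204K13Rik had 10.2, 9.98, 6.78 and 5.61 CPM in monosomes and 65.9, 63.9, 52.7 and 69.6 CPM in light polysomes (log2 fold change 2.28, SE 0.17, adjusted p = 5.34e-14). Gm5918, an antisense gene in the table and protein coding Ccpg1os in GENCODE, was also on the light polysome side (1.52). Ribosomal protein, other TOP, mitochondrial chromosome and pseudogene models together took 44.6% ± 1.29 of monosome counts and 21.2% ± 3.13 of light polysome counts (SD, n = 4).

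Short coding sequences were high in light polysomes. Of 48 genes listed in the table for small abundant cytosolic and ER proteins 41 were tested, 31 (75.6%) were called in light polysomes and 3 in monosomes, and the median was 1.13. Of 20 Sm and LSm genes, whose products form the rings around spliceosomal and other small RNAs, 18 were tested, 13 were called in light polysomes and 1 in monosomes (median 1.09). Of 50 replication-dependent histone genes 12 passed the filter, 8 were called in light polysomes and 1 in monosomes (median 0.82). These mRNAs lack a poly(A) tail in their main form, and only polyadenylated molecules enter such libraries. In all, 1775 genes (20.1% of those tested) had a mean CPM in light polysomes above both monosomes and heavy polysomes in all 4 gradients. Such a light polysome maximum was present in 31 of the 41 small abundant proteins, 14 of the 18 Sm and LSm genes and 9 of the 12 histones, and in 1 of the 68 ribosomal proteins.

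Serp1, a 66 residue ER membrane protein that protects unfolded proteins (chromosome 3, 58521969 to 58525873), had 1077, 874, 941 and 845 CPM in monosomes, 4093, 4233, 4879 and 4569 CPM in light polysomes and 1879, 1426, 2297 and 2187 CPM in heavy polysomes. Its log2 fold change was 1.86 (SE 0.10, adjusted p = 2.74e-18), and light polysomes were above both neighbours in each gradient. Banf1, an 89 residue DNA binding protein of the nuclear envelope (chromosome 19, 5364641 to 5366645), had 286, 593, 144 and 285 CPM against 1471, 2357, 1181 and 1689 CPM (log2 fold change 1.97, SE 0.11, adjusted p = 3.57e-18). Timm10, a chaperone of the mitochondrial intermembrane space with 90 residues (chromosome 2, 84826997 to 84830213), had 44.8, 87.8, 49.5 and 30.97 CPM against 275, 373, 266 and 235 CPM (log2 fold change 1.97, SE 0.11, adjusted p = 2.95e-17). The classes of both did not overlap. Tmem14c, a mitochondrial membrane protein needed for haem synthesis, was at 41.3, 79.3, 40.5 and 27.3 CPM and 355, 463, 181 and 228 CPM (log2 fold change 2.09, SE 0.11, adjusted p = 6.81e-18), and Anapc11, the RING subunit of the anaphase-promoting complex, at 58.8, 65.2, 36.7 and 21.7 CPM and 296, 330.0, 213 and 212 CPM (log2 fold change 2.04, SE 0.11, adjusted p = 6.71e-18). Smco4 (1.96), Wbp5 (Tceal9 in GENCODE, 2.22), Uqcrq (2.02) and 5031439G07Rik (1.96) completed the 8 largest changes to light polysomes among protein coding genes at 10 CPM or more. All but 5031439G07Rik (404 residues) encode proteins under 200 residues.

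Snrpd3, a core Sm protein (chromosome 10, 75518042 to 75535440), had 291, 280.1, 163 and 149.7 CPM in monosomes and 1299, 1692, 991 and 836 CPM in light polysomes (log2 fold change 1.96, SE 0.10, adjusted p = 1.92e-18), and Lsm10, of the U7 particle that processes histone mRNA, had 28.2, 42.4, 12.3 and 11.9 and 179, 150.2, 136 and 125 CPM (log2 fold change 1.85, SE 0.14, adjusted p = 6.34e-14). Gradients of the classes did not overlap for either. Lsm11, the partner of Lsm10 with 361 residues, was the 1 member called in monosomes (log2 fold change -0.68, SE 0.22, adjusted p = 0.00842), and lost the call whenever 1 gradient was left out (-0.64 to -0.76, adjusted p 0.0147 to 0.0354). Among histones, Hist1h2bc had 3.77, 6.03, 6.8 and 4.49 CPM and 24.95, 27.3, 21.9 and 18.9 CPM (log2 fold change 1.42, SE 0.21, adjusted p = 5.73e-07), and Hist1h2ae (log2 fold change 0.95, SE 0.24, adjusted p = 0.00115) did not pass without LUL18 (0.72, adjusted p = 0.0219) or fraction 10 (0.70, adjusted p = 0.0235). At the other end of the small proteins, Pfdn5, a prefoldin subunit, was higher in monosomes (log2 fold change -0.92, SE 0.09, adjusted p = 1.96e-10).

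Within complexes the small subunits were called more often in light polysomes. The shares over all genes tested were 20.9% in light polysomes and 19.1% in monosomes. Of 80 nuclear genes of the respiratory chain 74 were tested, 41 (55.4%) were called in light polysomes and 11 in monosomes (median 0.55). Among those under 200 residues the counts were 37 and 4 of 51 (median 0.99), and among those of 200 residues or more 4 and 7 of 23 (median -0.04). Mitochondrial ribosomal proteins gave 28 and 10 of 69 tested genes (median 0.29), with 20 and 2 of 35 under 200 residues (median 0.49) and 7 and 8 of 33 above it (median 0.03). The split at 200 residues was chosen after the values were seen, and the difference between the parts was not tested. Uqcrq, a complex III subunit of 82 residues (chromosome 11, 53427922 to 53430831), had 134, 194, 74.8 and 81.1 CPM in monosomes and 795, 899, 570.2 and 610.4 CPM in light polysomes (log2 fold change 2.02, SE 0.11, adjusted p = 1.98e-18). Cox7b, of complex IV, had 129.7, 147, 36.9 and 77.8 CPM and 661, 691, 315 and 441 CPM (log2 fold change 1.90, SE 0.11, adjusted p = 1.003e-17). Both had classes that did not overlap. Uqcrfs1, the Rieske iron-sulphur protein of complex III with 274 residues, was higher in monosomes (83.9, 51.8, 93.04 and 74.9 CPM against 45.8, 35.6, 58.5 and 41.9 CPM, log2 fold change -1.16, SE 0.12, adjusted p = 2.13e-10). Cox7a2l, a supercomplex assembly factor of 111 residues (chromosome 17, 83501919 to 83514333), was short and on the monosome side, with 1081, 1051, 1129.5 and 1025 CPM in monosomes and 376, 322, 393 and 349 CPM in light polysomes (log2 fold change -2.12, SE 0.10, adjusted p = 1.04e-19). Among mitochondrial ribosomal proteins Mrpl34 (log2 fold change 1.51, SE 0.11, adjusted p = 5.88e-15) and Mrpl36 (log2 fold change 1.34, SE 0.11, adjusted p = 8.72e-13) were highest and Mrps30 (log2 fold change -0.99, SE 0.14, adjusted p = 1.603e-07) and Mrpl45 (log2 fold change -1.18, SE 0.10, adjusted p = 2.12e-12) lowest.

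**Figure D3:**
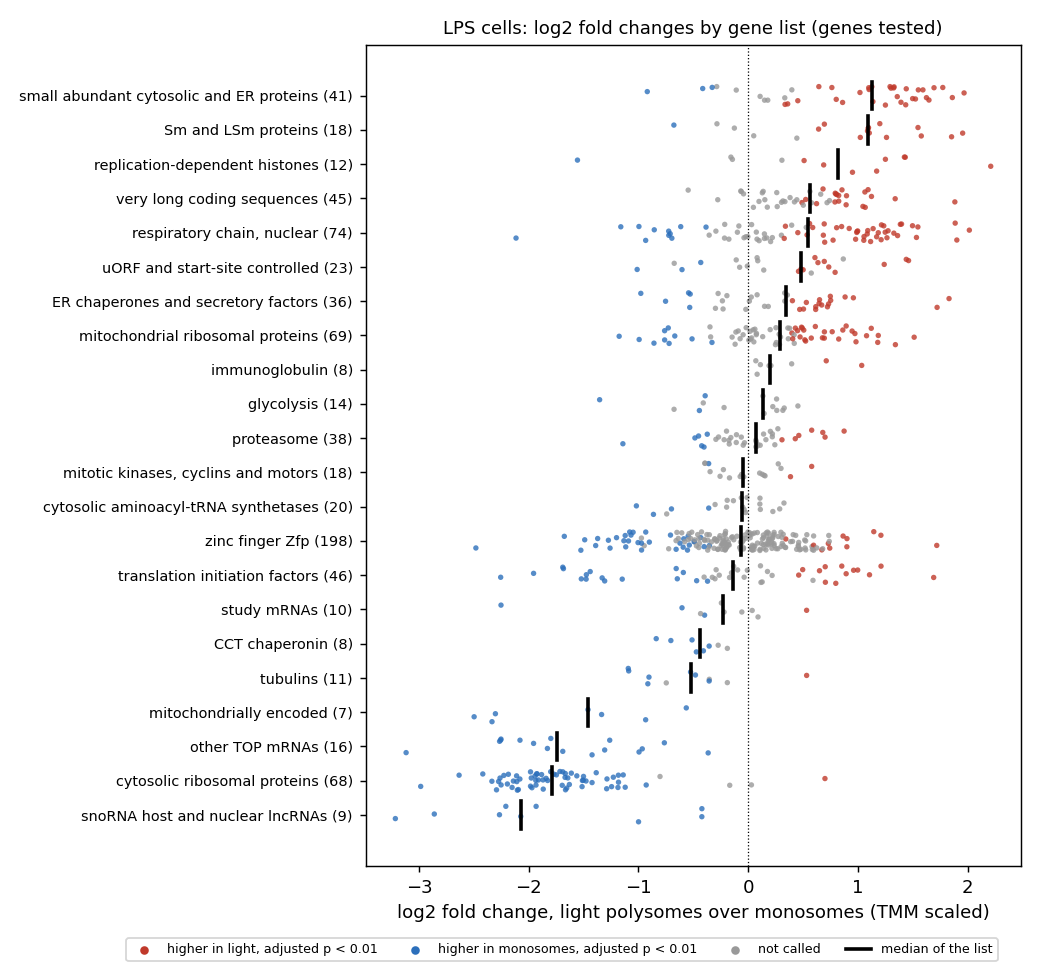
Log2 fold change of light polysomes over monosomes (TMM scaled) for each tested gene of 22 lists, with the number tested in parentheses. Points are genes, coloured by the call at an adjusted p under 0.01, and black bars are list medians, from 1.13 for small abundant proteins to -2.07 for snoRNA host and nuclear lncRNAs.

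Length gave a graded pattern over all protein coding genes. Of 201 tested genes with a product under 100 residues, 70.1% were called in light polysomes and 6.47% in monosomes (median log2 fold change 0.86). The shares were 57% and 9.92% for 100 to below 200 residues (1028 genes, median 0.62), 25.7% and 14.7% for 200 to below 400 (2455 genes, 0.15), 8.99% and 22.5% for 400 to below 800 (2935 genes, -0.14), and 5.62% and 20.8% for 800 to below 1600 (1263 genes, -0.18). At 1600 residues or more the order turned, with 20.4% in light polysomes and 8.05% in monosomes (348 genes, 0.19). Relative to all genes, the bin under 100 residues had medians of 0.92, 0.68, 1.00 and 1.08 in the 4 gradients and that of 400 to below 800 had -0.14, -0.16, -0.15 and -0.14, while that of 1600 or more had 0.09, -0.08, 0.10 and 0.34. A light polysome maximum was present in 81.1% of the shortest bin and 2.87% of the longest. Across 8230 genes with a length, Spearman's rho between residues and fold change was -0.33. It was -0.40 below 800 residues (6619 genes) and 0.26 from 800 residues on (1611 genes). Genes are not independent replicates, they share the libraries and their depth, and these correlations are descriptions.

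**Figure D4:**
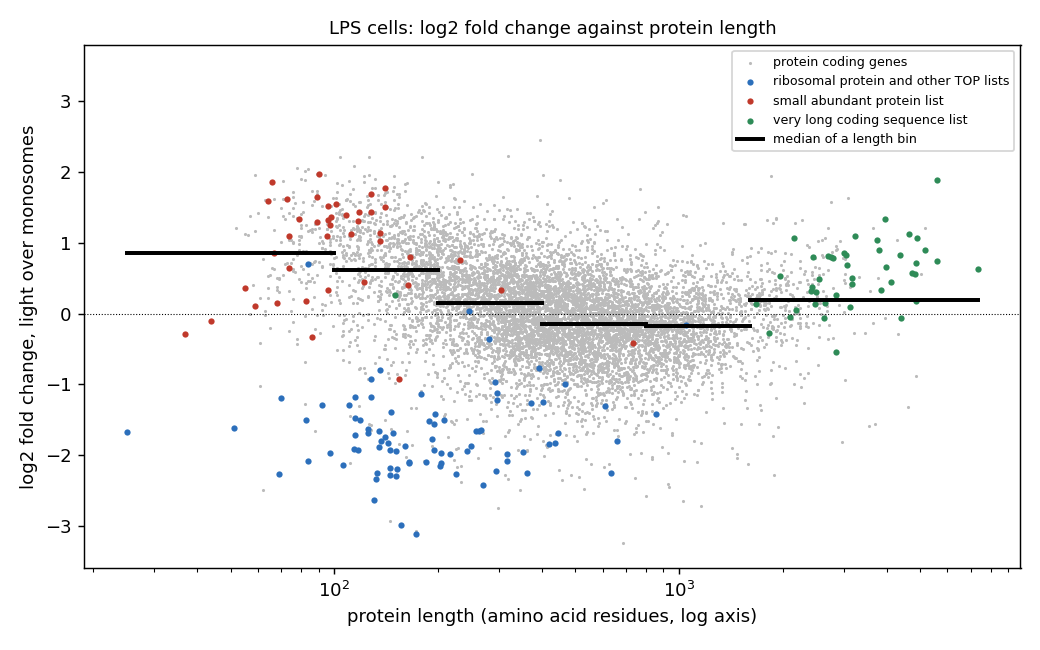
Log2 fold change of light polysomes over monosomes against protein length (log axis) for protein coding genes tested. Black bars mark the median of each length bin, from 0.86 under 100 residues to -0.18 at 800 to below 1600, and the ribosomal protein and other TOP lists lie below the other genes of their length.

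Very long coding sequences differed from the short ones in where they peaked. Of 51 in the table, 45 were tested, 20 (44.4%) were called in light polysomes over monosomes and none in monosomes (median 0.56), and none had a light polysome maximum. Mll2 (Kmt2d in GENCODE, 5588 residues), a histone H3 methyltransferase (chromosome 15, 98831669 to 98871204), had 6.3, 6.68, 1.54 and 1.33 CPM in monosomes, 34.3, 34.5, 21.97 and 23.3 CPM in light polysomes and 69.9, 81.5, 56.1 and 51.01 CPM in heavy polysomes (log2 fold change 1.88, SE 0.23, adjusted p = 1.38e-08). The 3 classes did not overlap and rose in that order in each gradient. Mll1 (Kmt2a), another methyltransferase, had 14.9, 15.3, 37.2 and 68.4 CPM in monosomes and 37.97, 28.3, 103 and 182 CPM in light polysomes (log2 fold change 1.34, SE 0.16, adjusted p = 6.27e-09). Its classes overlapped, since LUL17 and LUL18 were higher in both, but light polysomes were higher within each gradient. Dock2, a Rac activator of lymphocytes (-0.28, adjusted p = 0.0192), and Vps13d (-0.07, adjusted p = 0.821) were the lowest members by the naming rule. Of the 1852 genes called in light polysomes, 1036 (55.9%) had a light polysome maximum and 386 (20.8%) were higher still in heavy polysomes in all 4 gradients.

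Translation initiation factors had calls in both directions. Of 50 genes 46 were tested, 13 were called in light polysomes and 16 in monosomes (median -0.14). These were 28.3% and 34.8% of the list, against 20.9% and 19.1% of all genes tested. Of the 12 eIF3 subunits, which form the scaffold on the small ribosomal subunit, 9 were called in monosomes and none in light polysomes (median -1.31). Eif3a (0.22), Eif3b (-0.04) and Eif3d (-0.10) did not pass. All 7 genes of eIF1, eIF1A and eIF5A, which were also the only tested members of the list under 200 residues, were called in light polysomes (median 0.96). These 2 subsets were formed after the values were seen, and Eif3e, Eif3f and Eif3h are also in the TOP list. Eif3f (chromosome 7, 108934417 to 108942951) had 1017, 959, 919.8 and 861 CPM in monosomes and 279, 239.5, 256 and 271 CPM in light polysomes (log2 fold change -2.26, SE 0.10, adjusted p = 1.099e-20), and Eif3h had 1597, 1538, 1415 and 1311 and 588, 514, 523 and 513 CPM (log2 fold change -1.96, SE 0.10, adjusted p = 4.79e-19). Eif5a, the hypusinated elongation factor (chromosome 11, 69916714 to 69921958), had 369, 408, 307 and 265 CPM and 1314, 2064, 1256 and 1099 CPM (log2 fold change 1.69, SE 0.10, adjusted p = 7.34e-17), and Eif1b had 15.8, 21.2, 14.5 and 14.1 and 62.2, 79.2, 56.2 and 70.5 CPM (log2 fold change 1.21, SE 0.14, adjusted p = 5.36e-09). The classes of each of these 4 did not overlap.

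Secretory and start-site controlled mRNAs had more calls in light polysomes than in monosomes. Of 37 ER chaperones and secretory factors 36 were tested, 17 (47.2%) were called in light polysomes and 5 (13.9%) in monosomes (median 0.35). The shares over all genes tested were 20.9% and 19.1%. Relative to all genes, the list median was 0.41, 0.33, 0.04 and 0.09 in the 4 gradients. Under 200 residues 8 of 13 were called in light polysomes and 1 in monosomes (median 0.50), and at 200 residues or more 9 and 4 of 23 (median 0.08), a split chosen after the values were seen. Sdf2l1, an ER chaperone cofactor (log2 fold change 1.83, SE 0.10, adjusted p = 1.29e-17), and Spcs1, a signal peptidase subunit (log2 fold change 1.72, SE 0.15, adjusted p = 2.22e-12), were highest. Srp68, of the signal recognition particle (log2 fold change -0.98, SE 0.12, adjusted p = 1.77e-08), and Herpud1, of ER-associated degradation (log2 fold change -0.75, SE 0.09, adjusted p = 1.23e-08), were lowest. Of 27 mRNAs with upstream reading frames or other start-site control 23 were tested. Of these, 11 (47.8%) were called in light polysomes and 3 (13.0%) in monosomes (median 0.48). Oaz1, the ornithine decarboxylase antizyme made by frameshifting, had 57.6, 94.3, 36.2 and 36.3 CPM in monosomes and 299, 225, 251 and 218 CPM in light polysomes (log2 fold change 1.44, SE 0.12, adjusted p = 1.86e-12). Slc35a4, whose leader holds a conserved small reading frame, had 28.3, 42.6, 44.5 and 18.2 and 145, 138, 103 and 97.7 CPM (log2 fold change 1.46, SE 0.12, adjusted p = 1.54e-12). Fth1, ferritin heavy chain with an iron-responsive element in its leader, had 2080.3, 1741, 1720.5 and 1445 CPM in monosomes and 924, 813, 1011 and 859.7 CPM in light polysomes (log2 fold change -1.01, SE 0.10, adjusted p = 2.79e-11). None of these 3 had overlapping classes.

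Other housekeeping groups lay near or below 0. Over all genes tested, 20.9% were called in light polysomes and 19.1% in monosomes. Monosome shares of the aminoacyl-tRNA synthetases, the proteasome and glycolysis were near that, at 20%, 15.8% and 21.4%. Their light polysome shares were 0%, 18.4% and 0%. All 8 subunits of the CCT chaperonin, which folds actin and tubulin, were tested, 6 were called in monosomes and none in light polysomes (median -0.44), with Cct5 lowest (log2 fold change -0.84, SE 0.10, adjusted p = 6.03e-09) and Cct4 highest (-0.19, adjusted p = 0.116). On unscaled CPM the median log2 ratio of this list was 0.15, -0.04, 0.28 and -0.16 in the 4 gradients. Cct5 was not called with limma on unscaled CPM and equal weight per fraction (adjusted p = 0.0511). Of 11 tubulins tested of 15, 7 were called in monosomes and 1, the centrosomal Tubg1, in light polysomes (log2 fold change 0.53, SE 0.10, adjusted p = 4.02e-05, list median -0.52). Tuba4a was called in monosomes (log2 fold change -1.09, SE 0.12, adjusted p = 5.26e-10). Of 20 aminoacyl-tRNA synthetases 4 were called in monosomes and none in light polysomes (median -0.06), Farsa among them (log2 fold change -1.02, SE 0.12, adjusted p = 6.204e-09). The proteasome gave 7 light polysome and 6 monosome calls of 38 tested (median 0.07), with Psmd9 (log2 fold change 0.87, SE 0.10, adjusted p = 6.505e-09) and Psmb1 (log2 fold change -1.14, SE 0.10, adjusted p = 5.49e-12) at its ends. Glycolytic enzymes gave 3 monosome calls of 14 tested and none in light polysomes (median 0.14). Gpi1, glucose-6-phosphate isomerase, was lowest (log2 fold change -1.35, SE 0.09, adjusted p = 6.69e-15), and Pfkl (log2 fold change -0.44, SE 0.11, adjusted p = 0.00122) did not pass without LUL18 (-0.40, adjusted p = 0.0103) or fraction 10 (-0.31, adjusted p = 0.0219). Of 18 mitotic genes tested 2 were called in light polysomes and 1 in monosomes (median -0.05). Birc5, survivin, had 173, 226, 201 and 213 CPM and 406, 540.3, 514 and 460.4 CPM (log2 fold change 0.58, SE 0.10, adjusted p = 3.65e-06), and was at 0.17 (adjusted p = 0.128) without fraction 10. Ccna2, cyclin A, was called at 0.39 (SE 0.11, adjusted p = 0.00474) and did not pass without any 1 of the 4 gradients (0.34 to 0.41, adjusted p 0.0119 to 0.0299). Of 342 Zfp genes 198 were tested, 11 were called in light polysomes and 33 in monosomes (median -0.06). Zfp36, the AU-rich element binding protein tristetraprolin, had 797, 771, 1002 and 803 CPM in monosomes and 410.0, 281, 541 and 405 CPM in light polysomes (log2 fold change -1.68, SE 0.10, adjusted p = 5.08e-17).

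A list of 10 genes was drawn from those the study names, some of them there only as proteins, and is marked as study mRNAs in the plot of lists. Of these, Ccnd2 was called in light polysomes, Pabpc1, Mdm2 and H2-K1 in monosomes, and 6 did not pass. The list shares were 10% and 30%, against 20.9% and 19.1% of all genes tested, in a list of only 10 genes. Trp53, which encodes p53 (chromosome 11, 69580359 to 69591873), had 121, 161, 106 and 124 CPM in monosomes, 131, 223, 127 and 190.2 CPM in light polysomes and 308, 514, 279 and 416 CPM in heavy polysomes. Its log2 fold change of 0.09 (SE 0.10, adjusted p = 0.486) did not pass. Its CPM was higher in light polysomes within each gradient, while the classes overlapped across gradients, and without scaling factors it was called higher in light polysomes (adjusted p = 5.85e-05). Each heavy polysome value exceeded all values of both classes. Ccnd2, cyclin D2 (chromosome 6, 127125779 to 127151048), had 109, 63.3, 110.2 and 149 CPM, 164, 154, 208 and 200.4 CPM and 488, 425, 652 and 481 CPM in the 3 classes (log2 fold change 0.53, SE 0.11, adjusted p = 7.25e-05), and was at 0.21 (adjusted p = 0.122) without fraction 10. Mdm2, the ubiquitin ligase of p53, had 77.02, 77.3, 79.1 and 120.0 CPM in monosomes and 74.9, 76.4, 76.8 and 92.4 CPM in light polysomes (log2 fold change -0.60, SE 0.11, adjusted p = 1.34e-05). The gradients were close except for LUL18, where monosomes were higher. H2-K1, a class I histocompatibility antigen, was at -0.40 (SE 0.10, adjusted p = 7.38e-04), and at -0.31 (adjusted p = 0.0311) without LUL18. Without scaling factors Mdm2 (adjusted p = 0.309) and H2-K1 (adjusted p = 0.520) were not called. With limma and equal weight per fraction, which also used no scaling factors, they were not called (adjusted p = 0.577 and 0.394). The values of Hif1a (-0.24, adjusted p = 0.0475), Tia1 (-0.43, adjusted p = 0.0240), Cdkn1a (-0.22, adjusted p = 0.262), Tial1 (0.04, adjusted p = 0.830) and Gadd45a (-0.06, adjusted p = 0.883) did not pass. Hif1a and Tia1 passed without fraction 7 (-0.44 and -0.60), and Tia1 also without LUL18 (-0.60).

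Immunoglobulin mRNAs, the main secretory products of B cells, gave 2 light polysome calls and none in monosomes among 8 tested of 10 (median 0.20). The shares over all genes tested were 20.9% and 19.1%. Iglc2, the lambda light chain constant gene of 104 residues, had 1492, 1694, 1075 and 1026 CPM in monosomes, 4305, 4204, 4172 and 3654 CPM in light polysomes and 1803, 1749.7, 2102 and 2042 CPM in heavy polysomes (log2 fold change 1.03, SE 0.10, adjusted p = 4.498e-11). It had its maximum in light polysomes in each gradient. Igj, the joining chain of polymeric immunoglobulin, was called at 0.71 (SE 0.13, adjusted p = 1.05e-05), and was at 0.16 (adjusted p = 0.301) without fraction 10. Igkc, the kappa constant gene (0.08, adjusted p = 0.543), and Ighm, the mu heavy chain (0.19, adjusted p = 0.0997), did not pass. Ighm had 3893, 3810.2, 4919 and 5012 CPM in monosomes, 5742, 5776, 6677 and 4780.3 CPM in light polysomes and 15355, 17707, 27859 and 21009.7 CPM in heavy polysomes, the highest class in each gradient. Of the markers of other cells, the short mRNAs Lyz2 (148 residues, 1.73), S100a9 (113 residues, 1.55), S100a8 (89 residues, 1.31) and Hbb-b2 (147 residues, 1.34) were called in light polysomes, while the 1 T cell and the 1 NK and plasmacytoid marker tested did not pass.

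Several of the largest monosome values came from fraction 4. Slc22a23, a membrane transporter gene (chromosome 13, 34179158 to 34345182), had 54.4, 5.47, 159 and 57.4 CPM over fractions 4 to 7 and 25.9, 4.12, 4.43 and 8.59 CPM over fractions 5 to 7, against 4.27, 0.483, 1.73 and 0.0 CPM in light polysomes (log2 fold change -3.24, SE 0.32, adjusted p = 9.001e-11). It was counted 115830 bases from an annotated transcript end and outside an exon. Cd164l2 went from 47.8, 19.97, 111 and 157 CPM to 24.96, 17.9, 34.1 and 27.7 CPM, against 4.45, 2.36, 2.95 and 10.1 CPM in light polysomes (log2 fold change -3.08, SE 0.23, adjusted p = 2.94e-14), and was counted 2552 bases from an end. Sorcs2 (-2.72) and 9330182L06Rik (-2.64) were also counted outside an exon, 183265 and 57447 bases from an end. Gm10837 (-2.93) lay 63 bases from one. In the fit without fraction 4, 4 of these kept the call (-2.54 to -2.93) and Sorcs2 did not pass the expression filter. Of the 730 tested genes counted outside an exon of their own, 37.9% were called in monosomes and 15.3% in light polysomes, against 16.5% and 21.7% of the 7753 counted in an untranslated exon.

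The same contrast was made in gradients that share no library with these. In LPS+ET cells 3250 of 9060 genes were called (35.9%), 1708 in light polysomes (18.9%) and 1542 in monosomes (17.0%). Of 3454 genes called in LPS cells and tested there, 3222 (93.3%) had the same direction, 2150 (62.2%) were called in the same direction and 20 in the opposite one. In LPS+ET+KU cells 3691 of 10127 genes were called (36.4%), 1897 in light polysomes (18.7%) and 1794 in monosomes (17.7%), and of 3520 LPS calls 3297 (93.7%) had the same direction, 2358 (67.0%) the same call and 19 the opposite call. Across genes tested in both, Pearson's r of the fold changes was 0.80 (8424 genes) and 0.82 (8771 genes). This is a description over genes that share the LUL tags and the annotation. The ribosomal protein median was -2.24 in both treated groups.

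The difference in the light polysome over monosome change was then tested against LPS cells, on the same 4 LPS gradients for both treatments. With etoposide 495 of 9929 genes differed (4.99%), 160 with a higher value (1.61%) and 335 with a lower one (3.37%), and without scaling factors 292 were higher and 152 lower. With KU55933 ahead of etoposide 353 of 9978 differed (3.54%), 93 higher (0.932%) and 260 lower (2.61%), against 205 and 108 without scaling factors. Without the gradient as a block neither comparison called a gene (edgeR, 911 and 657 at an unadjusted p under 0.05). With limma and equal weight per fraction 50 and 82 genes were called. The second count fell to 178, 218 and 231 without LPS gradients LUL15, LUL17 and LUL18, and to 231 without LPS+ET+KU gradient LUL15. Without LPS+ET+KU gradient LUL18, 54 genes were higher and 145 lower.

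Ribosomal protein mRNAs were further on the monosome side after etoposide, with a median difference of -0.44 and 18 of 68 called lower and none higher, and with the inhibitor the median was -0.46 and 13 were called lower and none higher. Relative to the median of all genes, these medians stayed between -0.53 and -0.22 and between -0.61 and -0.27 over 20 alternatives each. Rps20 had a log2 fold change of -1.50 in LPS cells, -2.72 in LPS+ET cells and -2.72 in LPS+ET+KU cells. Its difference was -1.25 (SE 0.13, adjusted p = 5.295e-09) with etoposide and -1.21 (SE 0.20, adjusted p = 1.05e-04) with the inhibitor. Very long coding sequences had a median difference of 0.72 with etoposide (11 of 45 called higher, none lower) and 0.35 with the inhibitor (3 called higher, none lower). Mll1 went from 1.34 to 2.36 and 2.28, with differences of 0.99 (SE 0.24, adjusted p = 0.00514) and 0.96 (SE 0.23, adjusted p = 0.00556). Mitochondrially encoded mRNAs had a median difference of 0.50 with etoposide, 3 of 7 called higher, and 0.13 with the inhibitor, none called. Relative to the median of all genes these medians were 0.45 to 0.95 and 0.26 to 0.53 over the 20 alternatives for very long coding sequences, and 0.30 to 0.80 and -0.06 to 0.28 for mitochondrially encoded mRNAs. The last turned negative without fraction 7 (-0.06), LPS gradient LUL16 (-0.06) or LPS+ET+KU gradient LUL17 (-0.01). mt-Cytb went from -0.56 to 0.38 with etoposide, a difference of 0.91 (SE 0.16, adjusted p = 1.24e-04) and Ccnd2 from 0.53 to -0.13, a difference of -0.69 (SE 0.17, adjusted p = 0.00653). Banf1 went from 1.97 to 0.92 with the inhibitor, a difference of -1.04 (SE 0.17, adjusted p = 6.45e-05).

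**Figure D5:**
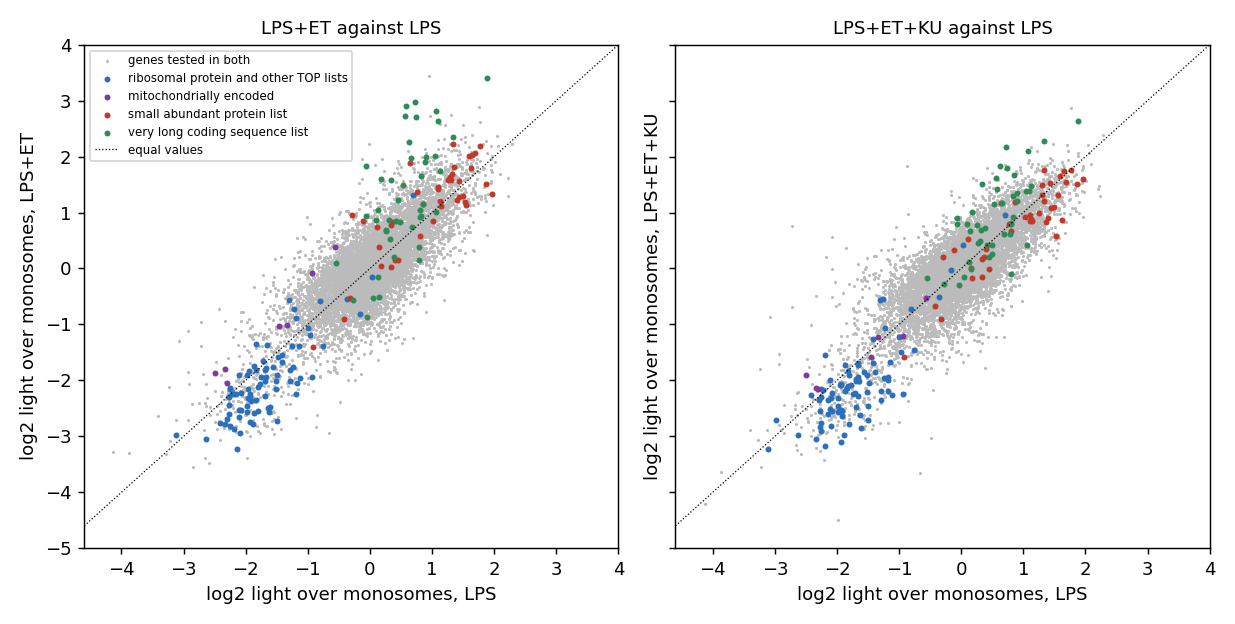
Log2 fold change of light polysomes over monosomes in LPS+ET cells (left) and LPS+ET+KU cells (right), each from its own fit, against that in LPS cells, with 1 point per gene tested in both and a dotted line of equal values. Gene lists are coloured, and the median of the ribosomal protein list was -1.79 in LPS cells and -2.24 in both treated groups.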

How the data were processed

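RNA from single fractions of sucrose gradients was measured by 3′ end sequencing of polyadenylated molecules. The authors removed duplicate reads by molecular tags, assigned reads to poly(A) sites of Ensembl genes on GRCm38 (mm10) and deposited whole-number counts per gene and library. The labels list TopHat2 2.0.12, HTSeq and DESeq2 1.6.3, and the aligner used for these libraries is not given in the sources used here.

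Counts were summed per gradient over fractions 4 to 7 (monosomes) and 8 to 10 (light polysomes) and tested with edgeR 4.0.16 (R 4.3.3; filterByExpr, TMM, quasi-likelihood F-test, gradient as block, Benjamini-Hochberg adjustment). The threshold was an adjusted p under 0.01, as in the study. Standard errors are those implied by the F statistic. An exact sign-flip test over 4 pairs cannot go below 0.125 and was not used. Differences between treatments were tested as an interaction with class. Gradients of different treatments under the same LUL tag were not paired in that test. Printed CPM are unscaled means over the fractions of a class, and a light polysome maximum is read against fractions 11 to 16. Both classes come from one gradient, which is the pairing: the classes of a gradient deviated together (r 0.267 to 0.529 over 4 pairs). No libraries were identical. Under 2 of the 4 LUL tags, columns give treatment and fraction but not which of several GEO samples they are. A gradient is named by its column's LUL tag. Protein lengths are of GENCODE coding sequences and starts of RefSeq.

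Named genes were 10 genes drawn from those the study names, the 8 protein coding and 4 other genes with the largest changes in each direction at a mean of 10 CPM or more and with 1 direction in all 4 gradients, the 2 highest and 2 lowest members of each list at that level, and the 5 protein coding mRNAs with the highest mean CPM. Eif3a, Eif3b, Eif3d, Rpl27, Rpl24, Ccna2, Lyz2, S100a8, S100a9 and Hbb-b2 are named beyond it. The values of 1 gene that the rule names are not reported here. Members and lists were chosen with earlier results of these data known. Models were tested on simulated data. Alternatives were RLE or no scaling factors, no filter, DESeq2 1.42.0, limma 3.58.1 on log2(mean CPM + 1) or + 5, single-fraction libraries, no block, other class borders, and leaving out shallow libraries or each gradient. The 4 replicates are biological replicates per the study's methods. Depth limits the low genes, and counting error falls with the counts given for each library.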

Additional observations from a re-analysis of the deposited data

Results flagged for a closer look

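In 4 named genes 1 gradient lay apart from the other 3 in the log2 ratio of light polysome to monosome mean CPM. In gradient LUL18, Mdm2 was at -0.37 (others -0.04 to -0.02), Smco4 at 3.56 (others 1.88 to 1.91) and Eif1b at 2.24 (others 1.85 to 1.91). In gradient LUL16, Pvt1 was at -0.51 (others 0.46 to 0.65). Chance marks about 1 in 20 groups in this way, and 116 named genes were examined.

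The change from monosomes to light polysomes differed from that in LPS cells for 495 genes with etoposide (edgeR interaction test), the named genes here among them. For each, the difference on the log2 scale is given with the values of the LPS and of the treated gradients from their own fits. It was lower for Ccnd2 at a difference of -0.69 (SE 0.17, adjusted p = 0.00653, from 0.53 to -0.13), Nap1l1 at a difference of -0.65 (SE 0.14, adjusted p = 0.00123, from -0.76 to -1.38) and Tcp1 at a difference of -0.66 (SE 0.15, adjusted p = 0.00241, from -0.70 to -1.33). It was lower for Pfdn5 at a difference of -0.52 (SE 0.13, adjusted p = 0.00699, from -0.92 to -1.41) and Rps18-ps3 at a difference of -0.73 (SE 0.13, adjusted p = 1.22e-04, from -1.89 to -2.58). It was lower for Rps20 at a difference of -1.25 (SE 0.13, adjusted p = 5.30e-09, from -1.50 to -2.72). It was higher for Cd164l2 by 1.75 (SE 0.32, adjusted p = 2.12e-04, from -3.08 to -1.30), Gm10837 by 1.76 (SE 0.46, adjusted p = 0.00974, from -2.93 to -1.12) and mt-Nd2 by 0.59 (SE 0.15, adjusted p = 0.00753, from -2.50 to -1.87). It was higher for mt-Nd4 by 0.83 (SE 0.17, adjusted p = 7.66e-04, from -0.93 to -0.07), mt-Cytb by 0.91 (SE 0.16, adjusted p = 1.24e-04, from -0.56 to 0.38) and Vps13d by 1.86 (SE 0.35, adjusted p = 2.52e-04, from -0.07 to 1.84). It was higher for Mll1 by 0.99 (SE 0.24, adjusted p = 0.00514, from 1.34 to 2.36) and Mll2 by 1.49 (SE 0.37, adjusted p = 0.00679, from 1.88 to 3.41). Both treatments were compared with the same 4 LPS gradients.

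The change from monosomes to light polysomes differed from that in LPS cells for 353 genes with KU55933 and etoposide (edgeR interaction test), the named genes here among them. For each, the difference on the log2 scale is given with the values of the LPS and of the treated gradients from their own fits. It was lower for Banf1 at a difference of -1.04 (SE 0.17, adjusted p = 6.45e-05, from 1.97 to 0.92), Tcp1 at a difference of -0.77 (SE 0.17, adjusted p = 0.00238, from -0.70 to -1.48) and Cct4 at a difference of -0.69 (SE 0.16, adjusted p = 0.00463, from -0.19 to -0.88). It was lower for Eif5a at a difference of -0.85 (SE 0.17, adjusted p = 8.51e-04, from 1.69 to 0.83), Snhg5 at a difference of -0.72 (SE 0.17, adjusted p = 0.0058, from -0.42 to -1.15) and Pfdn5 at a difference of -0.65 (SE 0.16, adjusted p = 0.00827, from -0.92 to -1.58). It was lower for Rps18-ps3 at a difference of -0.85 (SE 0.20, adjusted p = 0.00632, from -1.89 to -2.74) and Rps20 at a difference of -1.21 (SE 0.20, adjusted p = 1.05e-04, from -1.50 to -2.72). It was higher for Cd164l2 by 2.23 (SE 0.33, adjusted p = 1.59e-05, from -3.08 to -0.86), Sorcs2 by 3.49 (SE 0.51, adjusted p = 1.14e-05, from -2.72 to 0.76) and Mll1 by 0.96 (SE 0.23, adjusted p = 0.00556, from 1.34 to 2.28). Both treatments were compared with the same 4 LPS gradients.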

How the results depend on the processing

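The count of 3541 genes between light polysomes and monosomes was 2246 with single-fraction libraries, where 5875 genes were tested, and 1412 without the gradient as a replicate block (724 higher in light polysomes, 688 in monosomes). It was 2900 to 3240 without 1 gradient each, and 3860 with no filter on low counts (62.4% in light polysomes). The counts that differed from LPS cells with etoposide (495) and with the inhibitor (353) were 50 and 82 with limma, 39 and 44 with its pseudocount of 5, 27 and 85 with single-fraction libraries, 325 and 235 without fraction 10, and 0 and 0 without the replicate block (911 and 657 at an unadjusted p under 0.05; with the block DESeq2 called 414 and 352). They were 337 to 454 and 178 to 465 without 1 gradient each. Beyond the scaling of all genes, which moved the split of higher and lower calls, the cause of these changes was not tested.

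Single values with no scaling factors or with limma are given after subtraction of the median over all genes in that setting, while their tests are of the values before it. On that scale, signs turned for 9 named genes, none of which passed in the reported test. Gadd45a was at 0.0671 with no filter, 0.24 without fraction 10 and -0.248 to 0.0862 without 1 gradient each. Tial1 was at -0.077 with single-fraction libraries, -0.165 without fraction 7, -0.109 without fraction 10 and -0.0208 to 0.0682 without 1 gradient each. Trp53 was at -0.162 with limma, -0.0484 with limma and a pseudocount of 5, -0.0167 with single-fraction libraries and -0.0157 without fraction 7. Rpl7l1 was at -0.0145 with DESeq2, -0.0010 with single-fraction libraries, -0.363 without fraction 10, -0.00676 without fraction 4 and -0.164 to 0.131 without 1 gradient each. Cct4 was at 0.0315 without fraction 10. Ighg2b was at -0.0407 with single-fraction libraries and -0.0171 without fraction 7. Igkc was at -0.169 with limma, -0.0466 with limma and a pseudocount of 5, -0.00123 with single-fraction libraries and -0.0168 without fraction 10. The limma values of Trp53 and Igkc are negative only relative to that median, since the CPM of both was higher in light polysomes in all 4 gradients. Vps13d was at 0.0629 with no filter and -0.177 to 0.137 without 1 gradient each. Tuba1a was at 0.0719 without fraction 10.

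Of the values of the 116 named genes under the alternatives, 1655 kept direction and side of the threshold, 126 lost and 30 gained the call and 28 changed sign. Monosome calls lost with limma on unscaled CPM and equal weight per fraction included Cct5, Tcp1, Farsa, Srp68, Herpud1, Mrps30 and Nap1l1 (adjusted p 0.0511 to 0.510). List medians changed sign under some alternative for aminoacyl-tRNA synthetases, glycolysis, mitotic genes, the proteasome and initiation factors. Among the 28 libraries, the 3 under 100000 counts, all of fraction 4, limit what that fraction shows of low genes. Other shallow libraries were used as well. Fraction 12 of LPS gradient LUL17 held 32306 counts and entered the heavy polysome values, the light polysome maxima and the course over fractions. Fraction 4 of LPS+ET gradients LUL17 and LUL18 held 32104 and 74715 counts and entered the comparison with etoposide.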
